A study of Mus musculus with 30 samples.

Results

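The core circadian clock genes were followed in the abdominal aorta of the mouse across 6 groups. The 10 genes are those of a list built around Nr1d1, which was chosen by its measured FPKM in this series, higher with ethoxysanguinarine and with gastrodin than with angiotensin II alone. The others are Nr1d2, Per2, Per3, Dbp, Tef, Arntl, Npas2, Clock and Nfil3. All 10 had transcripts listed in all 30 libraries and all 10 passed the filter on low values (at least 1 FPKM in at least 5 libraries), out of 13223 genes tested and 14379 genes with values.

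All mice were wild-type (WT) C57BL/6 treated for 28 days, with 5 libraries per group. Replicate numbers used here follow the order in which the samples are listed and are not taken from the labels. 5 of the 6 groups received angiotensin II, a peptide hormone that constricts arteries, at 500 ng/kg/min. In 4 of these it was joined by 1 compound: ethoxysanguinarine (AngII+ETH), baicalin (AngII+BAI) or gastrodin (AngII+GAS) at 5 mg/kg/day, or, at 10.4 mg/kg/day, valsartan (AngII+VAL), a drug that blocks the angiotensin receptor. The AngII group received angiotensin II alone, and the Control group received saline. The hour of day at which the tissue was taken is not given in the sources used here.

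In the molecular clock, ARNTL (also called BMAL1) pairs with CLOCK or its relative NPAS2 and binds E-box sequences, which switches on the Per and Cry repressors, the nuclear receptors Nr1d1 and Nr1d2 (REV-ERB alpha and beta) and output factors such as Dbp. REV-ERB proteins in turn repress Arntl through ROR response elements, and NFIL3 (E4BP4) and the DBP and TEF family act oppositely on D-box elements. Since the loop runs with the time of day, Arntl, Npas2, Clock and Nfil3 (here the activator arm) and Nr1d1, Nr1d2, Per2, Per3, Dbp and Tef (here the repressor and output arm) peak at roughly opposite times in peripheral tissues, arteries included; Clock itself varies least.

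Promoter sequence was looked at first, since these genes regulate each other through known elements. RefSeq promoter windows on GRCm38.p6, which run from 250 bases before to 50 bases after each start, were matched for 9 of the 10 genes (13 windows, since some genes have several starts). Both strands were searched for the E-box CACGTG, the D-box TTATGTAA or TTACGTAA, and the core AGGTCA of the ROR response element (RORE). The E-box was found in both Tef windows, against 7.15% of all 32851 windows. The D-box was found in the Per3 window, at 2 places, against 1.06% of all windows. The RORE core was found in 1 window each of Nr1d2, Arntl, Clock and Nfil3, against 16.3% of all windows. A match is a run of letters and not a measured binding site, and the absence of a match speaks only of these letters in these windows.

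**Figure D1:**
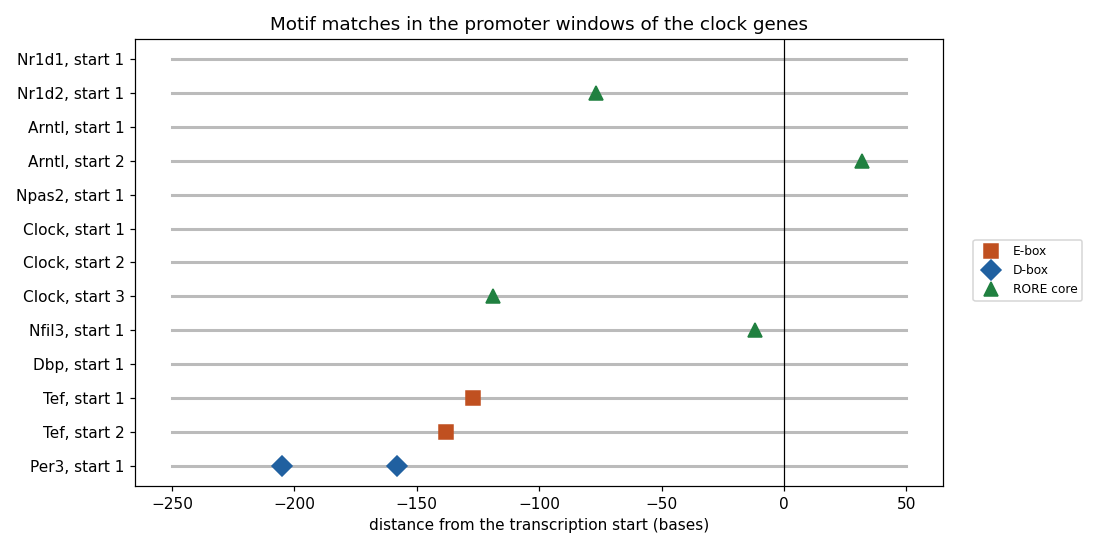
Motif matches in the 13 promoter windows. Each grey line is a window from 250 bases before to 50 bases after a transcription start (x axis, bases from the start), squares mark E-boxes, diamonds D-boxes and triangles RORE cores, and the Per3 window is the only one with 2 matches.

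The sequences before the start are shown for the gene with the largest differences between groups (Nr1d1), for its relative Nr1d2, and for the genes with a match other than Clock; for Arntl a short stretch just after its second annotated start is shown, because the match lies there. Each reads from 5′ to 3′ on the strand of the gene, and capitals mark the matches. The Nr1d1 stretch (chr11:98775378-98775627, minus strand) held none of the 3 motifs. That of Nr1d2 (chr14:18239107-18239356, minus strand) held the RORE core at −77, counted from the start. The Arntl stretch (chr7:113207530-113207559, plus strand) held it at 32, and the Nfil3 stretch (chr13:52981040-52981289, minus strand) held it on the other strand, as TGACCT, at −12. The E-boxes of Tef began at −127 from the first start (chr15:81802423-81802672, plus strand) and at −138 from the second (chr15:81811164-81811413, plus strand). The D-boxes of Per3 (chr4:151044666-151044915, minus strand) began at −205 and −158.
Nr1d1: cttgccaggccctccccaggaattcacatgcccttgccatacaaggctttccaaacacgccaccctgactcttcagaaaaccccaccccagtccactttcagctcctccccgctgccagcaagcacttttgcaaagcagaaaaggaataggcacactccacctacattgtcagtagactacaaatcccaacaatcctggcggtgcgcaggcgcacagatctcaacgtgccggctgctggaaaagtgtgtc
Nr1d2: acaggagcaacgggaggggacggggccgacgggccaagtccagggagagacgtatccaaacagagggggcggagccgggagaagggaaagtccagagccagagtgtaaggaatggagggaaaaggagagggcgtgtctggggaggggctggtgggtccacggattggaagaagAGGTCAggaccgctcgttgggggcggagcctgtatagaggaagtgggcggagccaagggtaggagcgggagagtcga
Arntl, second start: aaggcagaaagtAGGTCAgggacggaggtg
Nfil3: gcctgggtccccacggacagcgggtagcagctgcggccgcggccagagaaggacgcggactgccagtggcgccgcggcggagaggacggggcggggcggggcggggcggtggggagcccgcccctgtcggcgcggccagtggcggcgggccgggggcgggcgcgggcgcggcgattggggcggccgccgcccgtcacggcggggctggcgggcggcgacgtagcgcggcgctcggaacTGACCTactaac
Tef, first start: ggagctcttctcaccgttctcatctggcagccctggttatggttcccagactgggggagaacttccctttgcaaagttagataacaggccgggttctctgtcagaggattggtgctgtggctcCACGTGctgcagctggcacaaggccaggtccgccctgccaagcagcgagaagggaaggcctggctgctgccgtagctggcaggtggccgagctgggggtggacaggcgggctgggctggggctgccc
Tef, second start: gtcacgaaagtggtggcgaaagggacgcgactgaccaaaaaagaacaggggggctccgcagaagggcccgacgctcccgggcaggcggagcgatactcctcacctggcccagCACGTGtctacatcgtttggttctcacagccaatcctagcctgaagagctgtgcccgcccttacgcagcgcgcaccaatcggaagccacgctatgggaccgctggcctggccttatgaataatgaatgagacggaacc
Per3: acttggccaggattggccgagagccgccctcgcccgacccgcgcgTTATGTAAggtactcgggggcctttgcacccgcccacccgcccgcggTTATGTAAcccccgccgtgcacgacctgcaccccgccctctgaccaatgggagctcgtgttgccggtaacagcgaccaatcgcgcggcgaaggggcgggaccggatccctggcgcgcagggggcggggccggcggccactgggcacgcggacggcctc

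Values are FPKM (fragment counts scaled for transcript length and library depth), summed per gene over transcripts listed in all 30 libraries. The libraries held 69.8 to 80.8 mega-reads, as read from the steps between low values, so that 3 reads in a transcript of 2 kb amount to 0.0186 to 0.0215 FPKM. Fold changes are differences of mean log2(FPKM + 1) with the standard error (SE) of limma's fit; they understate the change of low genes. Smooth muscle and brown fat markers were both high. Acta2, the smooth muscle actin, had 869 to 7430 FPKM over the 30 libraries, and Ucp1, a brown adipocyte gene, had 275 to 3830 FPKM. The lowest smooth muscle marker level was in AngII+BAI replicates 3 and 5, which also had the highest macrophage markers. Markers of neighbouring tissue moved as well. The median fold change of the 3 brown adipocyte markers was −0.63 in AngII against Control. Against AngII it was 0.39 in AngII+ETH, 0.37 in AngII+BAI, 0.76 in AngII+GAS and 0.48 in AngII+VAL, and the ranges of these markers overlapped. The 5 neuron markers summed to 1.55 to 428 FPKM in AngII, against 1.02 to 22.5 FPKM in Control, and the 4 skeletal muscle markers with values summed to 481 to 2660 FPKM in AngII+VAL, against 3.82 to 49.5 FPKM in AngII. In bulk tissue, fewer cells of a type and less RNA per cell cannot be told apart. The labels do not say that each library came from its own mouse, so p-values measure only the spread between these libraries.

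No clock gene passed limma's test (Benjamini-Hochberg adjusted p under 0.05 over the 13223 genes) in any of the 9 comparisons made: 0 of 10 in each. Few genes of any kind did. Called genes made up 0.0% of those tested in AngII+ETH against AngII, 0.333% in AngII+BAI against AngII, 0.0151% in AngII+GAS against AngII, 0.0% in AngII+VAL against AngII and 0.0% in AngII against Control. Against Control they made up 0.0% in AngII+ETH, 1.44% in AngII+BAI, 0.00756% in AngII+GAS and 0.0% in AngII+VAL. At an unadjusted p under 0.05, the same fit had 451 genes of all kinds in AngII+ETH against AngII, 1936 in AngII+BAI against AngII, 1807 in AngII+GAS against AngII, 1429 in AngII+VAL against AngII and 1480 in AngII against Control. Against Control it had 685 in AngII+ETH, 2511 in AngII+BAI, 489 in AngII+GAS and 508 in AngII+VAL. Among the 9 clock genes other than Nr1d1, those with an unadjusted p under 0.05 were Nr1d2 and Clock in AngII+BAI against AngII, Nfil3 in AngII+VAL against AngII, Dbp and Nfil3 in AngII+ETH against Control, Clock in AngII+BAI against Control, and Nfil3 in AngII+VAL against Control. Ranges of a clock gene and its comparison group were apart in 3 cases, given with Nr1d1 and Nfil3, and overlapped in all other cases. Among all genes, ranges were higher without overlap in 0.0681% and lower in 0.431% for AngII+ETH against AngII, and in 0.303% and 1.40% for AngII+BAI against AngII. They were higher in 0.106% and lower in 2.21% for AngII+GAS against AngII, and in 0.537% and 2.42% for AngII+VAL against AngII. Against Control they were higher in 1.29% and lower in 0.703% for AngII+ETH, in 2.23% and 0.991% for AngII+BAI, in 0.265% and 0.817% for AngII+GAS, in 0.461% and 1.15% for AngII+VAL, and in 3.01% and 0.537% for AngII. Because Nr1d1 was chosen for its values in AngII+ETH and AngII+GAS against AngII, the clock genes are described there without p.

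Nr1d1 (chr11:98767932-98775333) was lowest in AngII and near or above the Control level in all compound groups. It had 20.2, 99.5, 78.0, 87.5 and 80.5 FPKM in AngII+ETH, 35.2, 74.8, 18.7, 89.7 and 36.5 FPKM in AngII+BAI, 64.7, 114, 30, 95.2 and 105 FPKM in AngII+GAS, and 82.6, 93.0, 34.3, 89.6 and 110 FPKM in AngII+VAL. It had 17.1, 22.4, 34.0, 9.25 and 18.7 FPKM in AngII, and 49.8, 36.0, 21.2, 85.0 and 50.8 FPKM in Control. The AngII+VAL libraries all lay above the AngII libraries, by a margin of 34.3 against 34.0 FPKM between the nearest 2, while the other 3 compound groups each overlapped AngII. Means were 73.1 ± 30.7 FPKM in AngII+ETH, 51.0 ± 29.9 FPKM in AngII+BAI, 81.7 ± 34.3 FPKM in AngII+GAS, 81.8 ± 28.3 FPKM in AngII+VAL, 20.3 ± 9.03 FPKM in AngII and 48.6 ± 23.6 FPKM in Control (SD, n = 5 each). The fold changes against AngII were 1.73 on the log2 scale in AngII+ETH, 1.19 in AngII+BAI, 1.93 in AngII+GAS and 1.97 in AngII+VAL (SE 0.47 each), and AngII against Control was −1.19 (SE 0.47). These comparisons share the AngII libraries that the choice of Nr1d1 rested on, so they are a description. In AngII+VAL against AngII, 0.537% of all genes had ranges that were higher and did not overlap.

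The comparisons that share no library with that choice showed no difference that passed the test. For AngII+VAL against Control the fold change of Nr1d1 was 0.78 on the log2 scale (SE 0.47, limma with Benjamini-Hochberg adjusted p = 1.0, unadjusted p 0.11), with AngII+VAL higher in 20 of the 25 pairs of libraries. For AngII+BAI against Control the means on the log2 scale were 5.49 and 5.49 (SDs 0.89 and 0.72, n = 5 each), with a limma adjusted p of 1.0. Without AngII+BAI replicates 3 and 5 the fold change of AngII+BAI was 0.48 against Control and 1.67 against AngII.

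**Figure D2:**
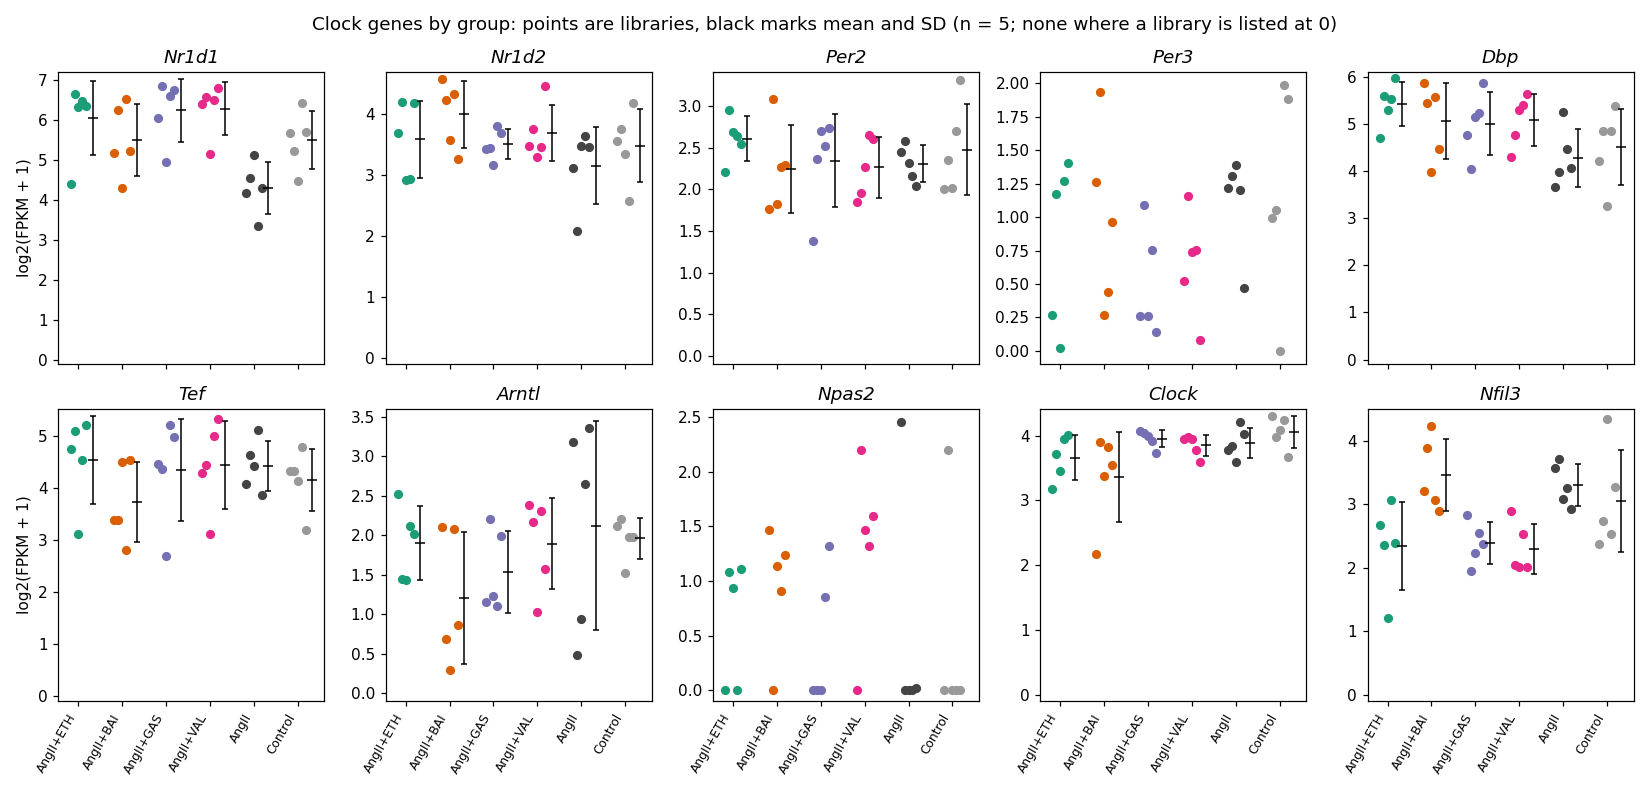
Levels of the 10 clock genes by group, as log2(FPKM + 1) on the y axis; points are libraries and black marks are the mean and SD of 5 libraries, left out for Per3 and Npas2 because some libraries are listed at 0. Nr1d1 is lowest in AngII and Nfil3 is low in AngII+ETH, AngII+GAS and AngII+VAL, while Arntl spans its widest range in AngII.

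The end of Nr1d1 overlaps Thra, the gene of thyroid hormone receptor alpha on the opposite strand, by 1075 bases. The library kit named in the labels does not mark strand, so reads in that stretch cannot be assigned by strand. Thra had 24.6 to 31.6 FPKM in 3 libraries with low Nr1d1, which were AngII+ETH replicate 1, AngII replicate 1 and AngII replicate 5. It had 2.85 to 19.2 FPKM in the other 27. With the FPKM of both genes summed, the fold changes became 1.24 in AngII+ETH, 0.57 in AngII+BAI, 1.24 in AngII+GAS and 1.31 in AngII+VAL, each against AngII, and −0.65 in AngII against Control, an addition made after the data were seen. All 5 directions held. The neuron markers were also high in those 3 libraries. Without AngII replicates 1, 4 and 5, where neuron markers were highest (also chosen after the data were seen), the fold changes of Nr1d1 were 1.20, 0.65, 1.39 and 1.44 in the same order of compounds, and −0.66 in AngII against Control. The 4 skeletal muscle and 2 kidney markers with values were higher without overlap in AngII+VAL than in AngII. The part of Thra reads, nervous tissue, brown fat, skeletal muscle and kidney in the Nr1d1 values was not tested.

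**Figure D3:**
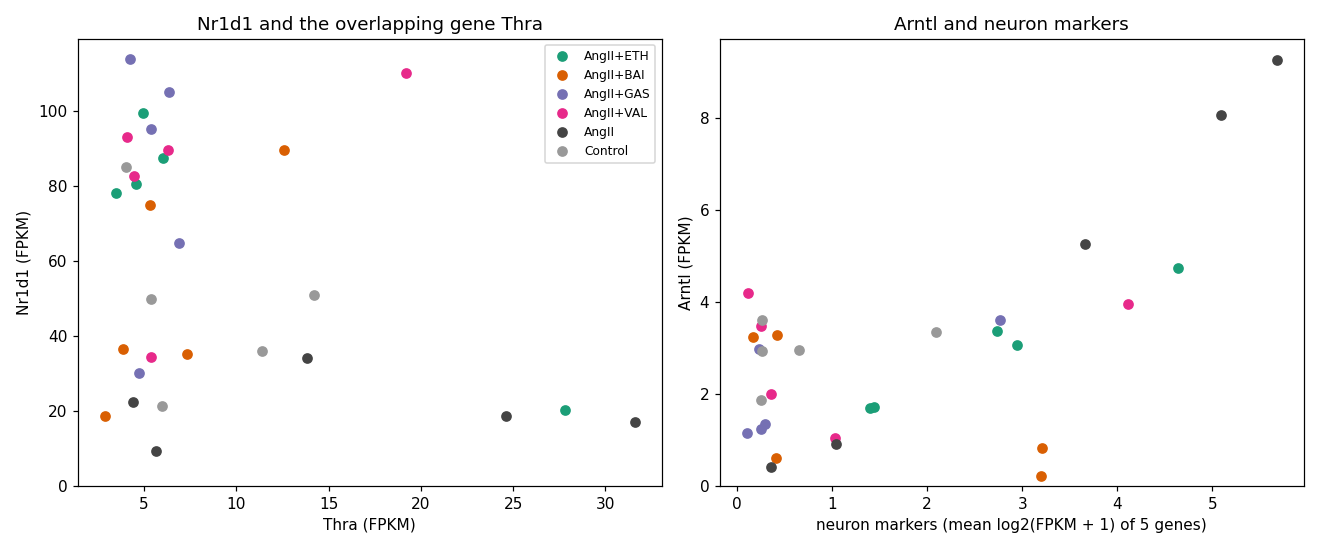
Nr1d1 against Thra (left, FPKM on both axes) and Arntl in FPKM against the mean log2(FPKM + 1) of 5 neuron markers (right); each point is 1 of 30 libraries, coloured by group. The 3 libraries with Thra of 24.6 FPKM or more have Nr1d1 of 20.2 FPKM or less, and the highest Arntl values, 9.27 and 8.06 FPKM, are in the AngII libraries with the highest neuron markers.

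Nr1d2 (chr14:18204054-18239127), which acts beside Nr1d1 as a repressor of Arntl, varied less. It ranged from 6.56 to 17.2 FPKM in AngII+ETH, 8.59 to 22.6 FPKM in AngII+BAI, 7.94 to 12.9 FPKM in AngII+GAS and 8.81 to 20.8 FPKM in AngII+VAL, against 3.25 to 11.4 FPKM in AngII and 4.95 to 17.0 FPKM in Control. All groups overlapped. The largest fold change was 0.84 on the log2 scale in AngII+BAI against AngII (SE 0.33, limma with Benjamini-Hochberg adjusted p = 0.24, unadjusted p 0.016). The fold changes were 0.43 in AngII+ETH, 0.35 in AngII+GAS and 0.53 in AngII+VAL against AngII, and −0.33 in AngII against Control (SE 0.33 each). Nr1d2 had the sign of Nr1d1 in each of these 5 comparisons, which share their AngII libraries. Without AngII replicate 2, the lowest at 3.25 FPKM, these fold changes were 0.16 in AngII+ETH, 0.57 in AngII+BAI, 0.08 in AngII+GAS and 0.27 in AngII+VAL, and −0.06 in AngII against Control.

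Per2 (chr1:91415982-91459324) and Per3 (chr4:151003652-151044665) encode period proteins; PER2 is a core repressor of ARNTL and CLOCK, and PER3 has a lesser part. Per2 averaged 5.18 ± 1.12 FPKM in AngII+ETH, 4.02 ± 2.04 FPKM in AngII+BAI, 4.34 ± 1.65 FPKM in AngII+GAS and 3.92 ± 1.23 FPKM in AngII+VAL, against 4 ± 0.754 FPKM in AngII and 4.92 ± 2.47 FPKM in Control (SD, n = 5 each). Its fold changes against AngII lay between −0.06 and 0.30 (SE 0.27), so no difference was seen beyond the spread of libraries. Per3 was the lowest of the repressor and output genes. It had 0.205, 1.25, 0.0128, 1.41 and 1.64 FPKM in AngII+ETH, 1.40, 2.83, 0.205, 0.359 and 0.945 FPKM in AngII+BAI, 0.201, 1.13, 0.199, 0.686 and 0.104 FPKM in AngII+GAS, and 0.436, 1.23, 0.672, 0.685 and 0.0585 FPKM in AngII+VAL. It had 1.32, 1.48, 1.62, 1.30 and 0.387 FPKM in AngII, and 0.988, 1.07, 2.96 and 2.68 FPKM in 4 Control libraries, with Control replicate 3 listed at 0. Its fold change was −0.61 in AngII+GAS and −0.47 in AngII+VAL against AngII (SE 0.35 each), opposite in sign to Nr1d1, and the groups overlapped (limma adjusted p = 0.65 for AngII+VAL). Per3 lies inside the span of Camta1, which is on the same strand and had 1.52 to 8.57 FPKM. The part of Camta1 reads in the Per3 values was not tested.

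Dbp (chr7:45705088-45710203), a D-box activator whose rhythm is among the strongest of the clock outputs, had higher means in all compound groups than in AngII. It had 24.9, 47.5, 38.1, 45.1 and 61.5 FPKM in AngII+ETH, 57.6, 42.3, 14.7, 46.8 and 21.2 FPKM in AngII+BAI, 26.1, 15.5, 34.3, 36.3 and 57.2 FPKM in AngII+GAS, and 18.6, 26.2, 38.3, 41.3 and 48.8 FPKM in AngII+VAL. It had 11.6, 14.7, 37.1, 21.1 and 15.7 FPKM in AngII, and 17.5, 27.6, 8.55, 27.7 and 40.6 FPKM in Control. Only AngII replicate 3, at 37.1 FPKM, reached into the AngII+ETH range, and AngII+ETH was higher in 24 of the 25 pairs. The fold changes against AngII were 1.14 on the log2 scale in AngII+ETH, 0.79 in AngII+BAI, 0.73 in AngII+GAS and 0.80 in AngII+VAL (SE 0.40 each). Those of AngII+BAI and AngII+VAL had limma adjusted p of 0.37 and 0.48. Against Control, AngII+ETH had a fold change of 0.91 (SE 0.40, limma adjusted p = 0.96, unadjusted p 0.033). Without AngII replicates 1, 4 and 5 the fold changes against AngII were 0.80 in AngII+ETH, 0.45 in AngII+BAI, 0.39 in AngII+GAS and 0.47 in AngII+VAL, and AngII against Control turned round, at 0.11 in place of −0.23. Without AngII+BAI replicates 3 and 5, low in smooth muscle markers, AngII+BAI was 1.35 against AngII and 1.12 against Control. Dbp overlaps Sphk2 on the opposite strand by 737 bases, and Sphk2 had 6.23 to 13.0 FPKM.

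Tef (chr15:81802421-81826863), the other D-box activator here, had fold changes on both sides of 0. Its means were 25.0 ± 11.2 FPKM in AngII+ETH, 13.8 ± 7.64 FPKM in AngII+BAI, 22.5 ± 11.7 FPKM in AngII+GAS and 23.4 ± 12.1 FPKM in AngII+VAL, against 21.4 ± 7.84 FPKM in AngII and 17.8 ± 6.67 FPKM in Control (SD, n = 5 each). The fold changes against AngII lay between −0.70 (AngII+BAI, SE 0.47, limma adjusted p = 0.49) and 0.12 (AngII+ETH). Most Tef came from ENSMUST00000023024, which starts at the second of the E-box windows printed above and had 4.60 to 38.3 FPKM. Its share of Tef had a median of 96.4% over the 30 libraries and was lowest in AngII+BAI replicate 1, at 64.1%. The transcript of the first window, ENSMUST00000109553, had 0.286 to 3.36 FPKM, its highest in AngII+BAI replicate 1.

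Nfil3 (chr13:52967209-52981073) represses at the D-boxes that DBP and TEF activate, and peaks opposite to them. It was low in 3 compound groups and not in AngII+BAI. It had 5.40, 4.14, 1.32, 7.36 and 4.23 FPKM in AngII+ETH, 8.24, 13.8, 17.7, 7.38 and 6.44 FPKM in AngII+BAI, 6.11, 2.86, 3.71, 4.85 and 4.17 FPKM in AngII+GAS, and 6.42, 3.13, 3.05, 4.75 and 3.01 FPKM in AngII+VAL. It had 10.8, 12.1, 7.46, 8.50 and 6.58 FPKM in AngII, and 4.18, 5.64, 19.3, 4.77 and 8.68 FPKM in Control. All AngII+GAS and all AngII+VAL libraries lay below all AngII libraries, whereas every group overlapped Control. Ranges that were lower and did not overlap were found in 2.21% of all genes for AngII+GAS and in 2.42% for AngII+VAL, each against AngII. The fold change of Nfil3 was −1.01 on the log2 scale in AngII+VAL against AngII (SE 0.34, limma with Benjamini-Hochberg adjusted p = 0.27, unadjusted p 0.0061). It was −0.96 in AngII+ETH, −0.92 in AngII+GAS and 0.15 in AngII+BAI against AngII (SE 0.34 each). Against Control it was −0.71 in AngII+ETH, −0.66 in AngII+GAS and −0.75 in AngII+VAL (limma adjusted p = 0.96, 1.0 and 1.0). Without Control replicate 3, whose 19.3 FPKM is the highest Control value, these were −0.39, −0.34 and −0.43. Both the skeletal muscle and the 2 kidney markers with values were higher without overlap in AngII+VAL than in AngII (kidney 69.9 to 100 FPKM, against 0 to 31.1 FPKM), and their part in the Nfil3 values was not tested. In AngII+GAS the skeletal muscle markers summed to 3.88 to 210 FPKM and the kidney markers to 0 to 29.1 FPKM, both overlapping AngII.

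**Figure D4:**
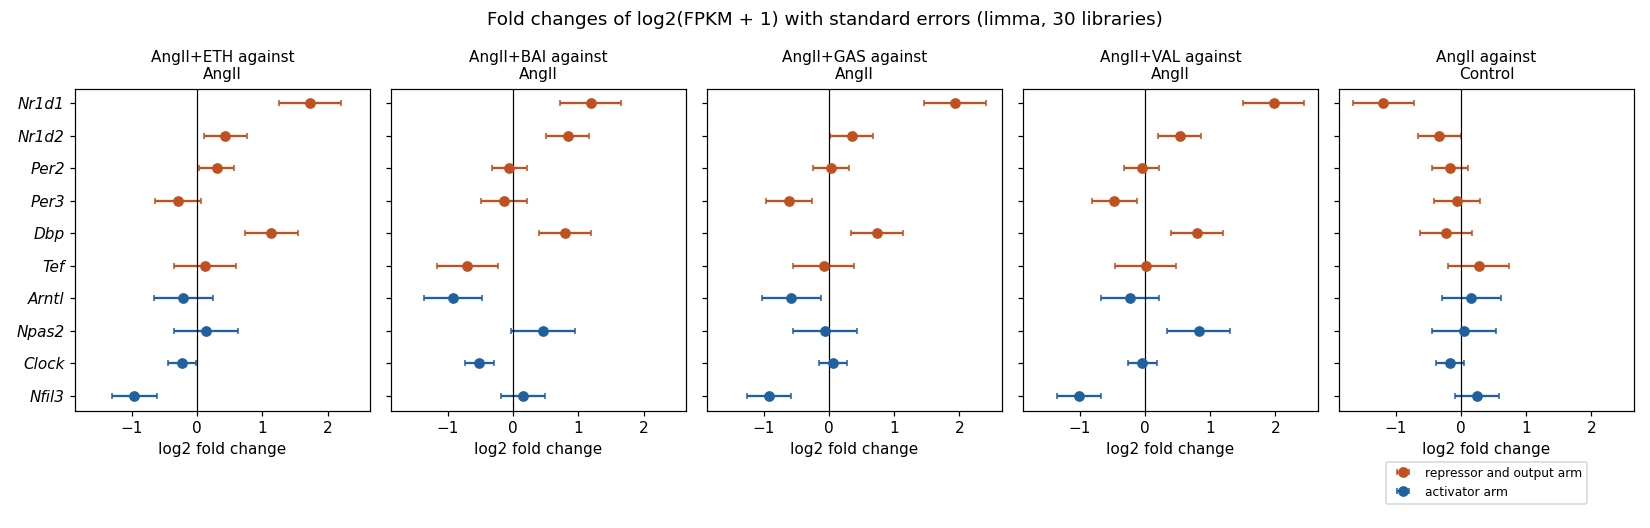
Log2 fold changes of the 10 clock genes (x axis, log2(FPKM + 1) scale) with standard errors from limma over 30 libraries, for each compound group against AngII and for AngII against Control. Nr1d1 is at 1.73, 1.19, 1.93 and 1.97 with the compounds and at −1.19 with AngII, Nfil3 is near −1 in 3 of the 4 compound groups, and most other genes lie within 1 unit of 0.

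Arntl (chr7:113207465-113314126), the partner of CLOCK and the best known target of REV-ERB repression, had fold changes opposite in sign to those of Nr1d1 but smaller, and none passed the test. It had 4.73, 1.72, 1.70, 3.36 and 3.06 FPKM in AngII+ETH, 3.29, 0.613, 0.225, 3.23 and 0.821 FPKM in AngII+BAI, 1.23, 3.61, 1.35, 1.15 and 2.98 FPKM in AngII+GAS, and 4.20, 3.48, 1.04, 3.95 and 1.99 FPKM in AngII+VAL. It had 8.06, 0.403, 0.914, 5.27 and 9.27 FPKM in AngII, and 3.35, 3.60, 1.87, 2.94 and 2.96 FPKM in Control. The AngII libraries fell into high and low values with none in the Control range of 1.87 to 3.60 FPKM, and all groups overlapped. Fold changes against AngII were −0.21 in AngII+ETH, −0.92 in AngII+BAI, −0.58 in AngII+GAS and −0.23 in AngII+VAL (SE 0.45 each), with a limma adjusted p of 0.35 for AngII+BAI and 0.89 for AngII+VAL. AngII against Control was 0.16 (SE 0.45, limma adjusted p = 0.93).

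The high Arntl values of AngII were in the 3 libraries with high neuron markers. The mean log2 level of these markers was 5.09, 3.66 and 5.68 in AngII replicates 1, 4 and 5, against 0.36 and 1.04 in replicates 2 and 3. Without replicates 1, 4 and 5, a choice made after the data were seen, the fold change of Arntl against Control was −1.25 in AngII, and those against AngII were 1.20 in AngII+ETH, 0.49 in AngII+BAI, 0.83 in AngII+GAS and 1.18 in AngII+VAL, so that every direction turned round. In AngII+BAI, replicates 3 and 5 had neuron marker levels of 3.20 and 3.21 and Arntl of 0.225 and 0.821 FPKM. The transcript behind the value also changed. In AngII replicate 5, ENSMUST00000210074 held 5.47 FPKM and ENSMUST00000211770 held 3.46 FPKM, while ENSMUST00000047321, the main transcript in most libraries, held 0.342 FPKM. ENSMUST00000210074 was at 0.343 FPKM or less in all other libraries. The part of nervous tissue in the Arntl values was not tested.

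Npas2 (chr1:39193731-39363236), which can stand in for CLOCK, rested on 1 of 3 annotated transcripts and was listed at 0 in 14 of 30 libraries. It had 0, 1.11, 0.907, 0 and 1.15 FPKM in AngII+ETH, 1.77, 0, 1.20, 0.877 and 1.35 FPKM in AngII+BAI, 0, 0, 0, 0.808 and 1.5 FPKM in AngII+GAS, and 0, 3.59, 1.76, 1.49 and 2.02 FPKM in AngII+VAL. It had 4.47, 0, 0, 0 and 0.012 FPKM in AngII, and 0, 3.59, 0, 0 and 0 FPKM in Control. In AngII and in Control 1 library each carried nearly all of it, so its fold changes, which enter the arm medians, are not described one by one.

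Clock (chr5:76209868-76304792) was the steadiest member, and was lowest in AngII+BAI. It had 8, 12.1, 9.98, 14.5 and 15.2 FPKM in AngII+ETH, 3.52, 13.9, 9.41, 13.2 and 10.7 FPKM in AngII+BAI, 15.8, 15.5, 15, 14.2 and 12.3 FPKM in AngII+GAS, and 14.5, 14.7, 14.4, 12.8 and 11.1 FPKM in AngII+VAL. It had 12.8, 13.3, 11.1, 17.5 and 15.3 FPKM in AngII, and 18.8, 14.8, 16.0, 18 and 11.8 FPKM in Control. The AngII+BAI range, with its lowest value in replicate 1, overlapped that of Control. The fold change of AngII+BAI against Control was −0.69 on the log2 scale (SE 0.22, limma with Benjamini-Hochberg adjusted p = 0.10, unadjusted p 0.0046), and AngII+BAI was lower in 23 of the 25 pairs. Without AngII+BAI replicate 2 or replicate 4, whose Clock values were the highest of that group, the test was passed, with fold changes of −0.83 and −0.81. Calls over all genes rose in the same fits. There were 763 higher and 191 lower without replicate 2, and 513 and 140 without replicate 4, against 146 and 44 with all 30 libraries. Without replicate 1 the fold change of Clock was −0.39. That library had 9401 transcripts at 0, against 3403 to 5729 in the others, and its Clock came from ENSMUST00000202122 (3.49 FPKM) with ENSMUST00000075159 at 0. ENSMUST00000075159 was also near 0 in AngII replicate 2 (0.00682 FPKM), where ENSMUST00000202651 held 6.78 FPKM.

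Whether the arms moved oppositely was examined between groups and between libraries. Of the 6 genes of the repressor and output arm, 5 had positive fold changes in AngII+ETH, 3 in AngII+BAI, 4 in AngII+GAS and 4 in AngII+VAL, each against AngII. Of the 4 genes of the activator arm, 3 had negative fold changes in AngII+ETH, 2 in AngII+BAI, 3 in AngII+GAS and 3 in AngII+VAL. The medians had opposite signs in all 4, at 0.36 and −0.22 in AngII+ETH, 0.36 and −0.19 in AngII+BAI, 0.19 and −0.32 in AngII+GAS, and 0.27 and −0.14 in AngII+VAL for the repressor and output arm and the activator arm. Over all genes tested the median fold change was −0.09, −0.01, −0.17 and −0.12 in the same order. In AngII against Control the medians were −0.20 and 0.11, against 0.11 for all genes. These comparisons share libraries, and the choice of Nr1d1 entered them. Compound groups against Control use no AngII library. Their medians were 0.26 and −0.22 in AngII+ETH and −0.11 and −0.14 in AngII+BAI. They were 0.11 and −0.26 in AngII+GAS, and 0.24 and −0.14 in AngII+VAL. For all genes they were 0.02, 0.09, −0.05 and −0.01. These share the Control libraries, and the AngII+ETH and AngII+GAS libraries entered the choice of Nr1d1. In the comparisons with AngII, the opposite signs were not kept without AngII replicates 1, 4 and 5, the libraries high in neuron markers. That choice was made after the data were seen. That fit keeps only AngII replicates 2 and 3, and no other set of that size was left out. In it the medians of the repressor and output arm and of the activator arm had the same sign in each compound group against AngII. They were 0.48 and 0.28 in AngII+ETH, 0.12 and 0.28 in AngII+BAI, 0.14 and 0.34 in AngII+GAS, and 0.19 and 0.66 in AngII+VAL. In AngII against Control both signs turned round, at 0.04 and −0.39.

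Between libraries of the same group, no opposite movement of the arms passed the test. Correlations were taken over the deviations of the 30 libraries from their group means, with permutations within groups and Benjamini-Hochberg adjustment over 45 pairs. Of the 24 pairs of opposite arms, 12 had negative and 12 positive r (median 0.0, from −0.33 to 0.35), and 0 passed the test, with 0 at an unadjusted permutation p under 0.05. For Nr1d1 with Arntl, Pearson's r was 0.04 (permutation p = 0.851, adjusted p = 0.913) and Spearman's rho was −0.08 (permutation p = 0.706, adjusted p = 0.934). Without the 2 libraries farthest in Nr1d1, AngII+ETH replicate 1 and AngII+GAS replicate 3, r was 0.12. The most negative pair was Nfil3 with Dbp, at r −0.33 (permutation p = 0.123, adjusted p = 0.613) and rho −0.24 (permutation p = 0.254, adjusted p = 0.889), and r was −0.19 without the 2 libraries farthest in Nfil3.

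Among the 21 pairs within an arm, 15 had positive r (median 0.11, from −0.25 to 0.49). None passed after adjustment, and 6 had an unadjusted permutation p under 0.05, all of them within the repressor and output arm. Dbp with Per2 had r 0.49 (permutation p = 0.0215, adjusted p = 0.316) and rho 0.45 (adjusted permutation p = 0.262). Nr1d1 with Per3 had r 0.46 (permutation p = 0.0247, adjusted p = 0.316) and rho 0.47, and Nr1d1 with Dbp had r 0.44 (permutation p = 0.0281, adjusted p = 0.316) and rho 0.45. Nr1d2 with Dbp (r 0.45), Per2 with Per3 (0.45) and Nr1d1 with Per2 (0.41) had adjusted permutation p of 0.316, 0.323 and 0.336. Without the 2 farthest libraries these 6 values of r lay between 0.39 and 0.57. Tef stood outside that set, with r from −0.11 to 0.15 with the other 5 genes of its arm. With the smooth muscle marker level, the deviations of Dbp had r 0.54, Per2 0.37, Nr1d1 0.36, Nr1d2 0.36, Per3 0.18 and Tef −0.20. For the skeletal muscle markers, r was −0.26, −0.43, −0.41, −0.02, −0.25 and 0.06 in the same order of genes. For the neuron markers it was −0.40, −0.16, −0.34, −0.03, −0.13 and 0.18. The part of tissue makeup in these pairs was not tested, and how often pairs of other genes reach such p was not counted.

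**Figure D5:**
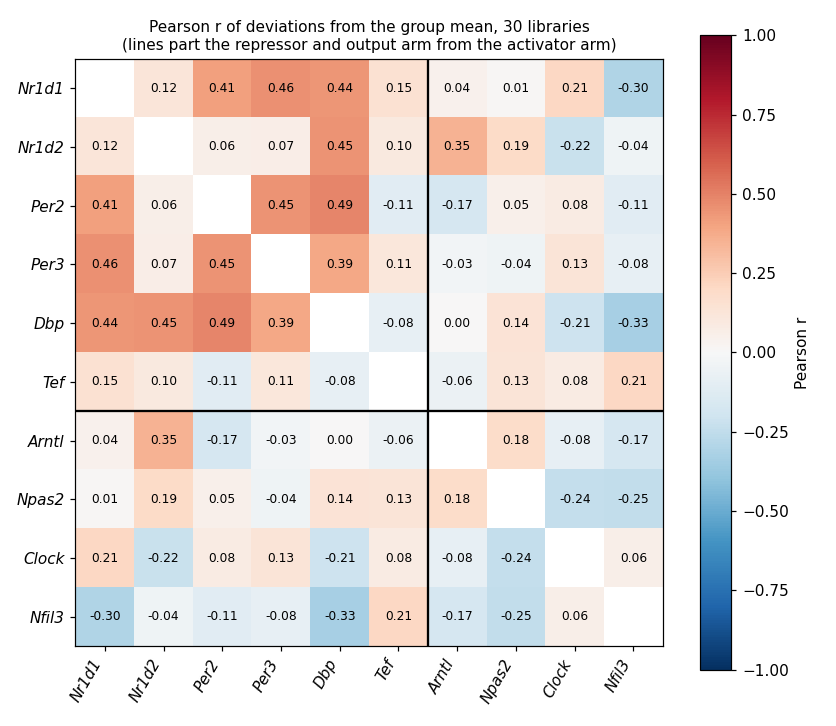
Pearson r for the 45 pairs of clock genes, from deviations of log2(FPKM + 1) from the group mean in 30 libraries; red is positive, blue negative, and the black lines part the arms. The upper left block holds the 6 highest values (0.41 to 0.49), and the upper right block of opposite arms holds values on both sides of 0.

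The spread within groups was wide for most of the members. The within-group SD of log2(FPKM + 1) was 0.77 for Nr1d1, 0.77 for Tef, 0.80 for Npas2, 0.75 for Arntl and 0.67 for Dbp, against a median of 0.39 over all genes tested. It was 0.57 for Per3, 0.55 for Nfil3, 0.53 for Nr1d2, 0.44 for Per2 and 0.36 for Clock. Nr1d1 and Nfil3 had the largest shares of their variance between groups, 48.8% and 48.7%, against a median of 21% over all genes; Nr1d1 was chosen for such a difference. For every one of the 10 genes, groups next to each other in the order of means had overlapping ranges.

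Other clock genes were counted from a list. Of 17 listed, 12 were tested, and 0 passed limma's test in any of the 9 comparisons. At an unadjusted p under 0.05 there was 1 in AngII+VAL against AngII and 1 in AngII against Control. Over all 13223 genes there were 1429 and 1480. Against Control there were 4 in AngII+ETH, 3 in AngII+BAI, 2 in AngII+GAS and 1 in AngII+VAL. Over all 13223 genes there were 685, 2511, 489 and 508 in the same order. The median fold change of the 12 against AngII was −0.03 in AngII+ETH, −0.19 in AngII+BAI, −0.16 in AngII+GAS and −0.07 in AngII+VAL. It was −0.09, −0.01, −0.17 and −0.12 for all genes. Cry1, a cryptochrome that represses CLOCK and ARNTL, had 2.38 to 2.88 FPKM in AngII+VAL, against 3.34 to 4.48 FPKM in AngII and 3.45 to 4.81 FPKM in Control. AngII+VAL lay wholly below both, with fold changes of −0.40 and −0.47 (SE 0.17 each, limma adjusted p = 0.38 and 1.0), where 2.42% and 1.15% of all genes were lower without overlap. The part of skeletal muscle and kidney tissue in these Cry1 values was not tested. In AngII+GAS, Cry1 had 1.66 to 3.83 FPKM and a fold change of −0.66 against Control (SE 0.17, limma adjusted p = 0.63). Csnk1e, a kinase that marks PER proteins for decay, had 14.1 to 19.7 FPKM in AngII, against 11.5 to 13.9 FPKM in Control. Its ranges did not overlap, as in 3.01% of all genes (higher), and the fold change was 0.37 (SE 0.12, limma adjusted p = 0.28).

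Per1, Cry2, Ciart, Bhlhe41 and Hlf overlapped between all groups compared. Per1, a period gene that also answers glucocorticoids, had 2.44 to 8.90 FPKM in AngII+BAI, against 0.881 to 4.64 FPKM in AngII and 0 to 3.99 FPKM in Control. Its fold change in AngII+BAI against Control was 1.39 (SE 0.51, limma adjusted p = 0.14). Bhlhe41 (DEC2), an E-box repressor, had medians of 3.80 FPKM in AngII+ETH, 2.45 FPKM in AngII+BAI, 2 FPKM in AngII+GAS and 1.65 FPKM in AngII+VAL, against 0.875 FPKM in AngII and 0.40 FPKM in Control. Ciart, a repressor of CLOCK and ARNTL, had 0.279 to 2.83 FPKM, Cry2 0.0036 to 13.4 FPKM and the D-box activator Hlf 0.00232 to 5.18 FPKM over the 30 libraries. Several of these values depend on which transcripts are summed. Over all transcripts, with 0 where a file does not list one, Per1 had 3.49 to 9.45 FPKM in AngII+BAI, against 2.0 to 4.41 FPKM in Control, and its fold change there was 0.88 (limma adjusted p = 0.23). Hlf then had 4.17 FPKM in Control replicate 4, in place of 0.00456 FPKM. Ciart then had 0.859 to 3.27 FPKM in AngII+ETH and 0.505 to 8.41 FPKM in AngII+BAI, against 0.461 to 1.19 FPKM in AngII and 0.357 to 0.962 FPKM in Control. Its fold change against AngII was 0.74 in AngII+ETH, in place of −0.01, and against Control 1.08 in AngII+BAI, in place of 0.45 (limma adjusted p = 0.0908).

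Genes that the clock is known to drive were looked at last. Of 5 listed and tested, 2 rose in AngII+BAI against Control by limma's test, and the median fold change of the 5 was 0.76, against 0.09 for all genes. In that comparison 1.44% of all genes were called in either direction, 146 higher and 44 lower. Wee1, a kinase that holds back mitosis and is a known target of CLOCK and ARNTL, had 7.53, 10.9, 5.14, 6.79 and 7.24 FPKM in AngII+BAI, 2.94, 4.10, 3.98, 2.27 and 2.67 FPKM in AngII, and 1.52, 2.27, 2.41, 2.24 and 5.51 FPKM in Control. AngII+BAI lay wholly above AngII, where 0.303% of all genes were higher without overlap, and above Control in 24 of 25 pairs. The fold change was 1.21 against Control (SE 0.25, limma with Benjamini-Hochberg adjusted p = 0.028) and 1.01 against AngII (SE 0.25, limma adjusted p = 0.064). Without AngII+BAI replicates 3 and 5, low in smooth muscle markers, it was 1.37 against Control (limma adjusted p = 0.0395). Leaving out 1 library at a time, the call against Control was lost without Control replicate 1, 2, 3 or 4 or AngII+BAI replicate 1 or 5 (limma adjusted p from 0.0518 to 0.0835). It was also lost in a fit of the 2 groups alone (limma adjusted p = 0.315). Calls over all genes fell in the same fits. Genes called higher were 5, 5, 6, 8, 14, 3 and 5 in that order, against 146 with all 30 libraries. With 1 library left out, the fold change of Wee1 against Control ran from 1.09 to 1.43.

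Tsc22d3 (GILZ), which glucocorticoids induce, was the other output gene called. It had 103, 52.1, 43.8, 39.6 and 69.5 FPKM in AngII+BAI, against 10, 14.6, 22.1, 23.1 and 24.4 FPKM in Control. The groups did not overlap, as in 2.23% of all genes (higher), and the fold change was 1.64 (SE 0.34, limma with Benjamini-Hochberg adjusted p = 0.029). The call was lost without both AngII+BAI replicates 3 and 5 (fold change 1.68, limma adjusted p = 0.0815), and without Control replicate 1, 2, 3 or 4 or AngII+BAI replicate 1 or 5 alone. It was also lost with array weights and in a fit of the 2 groups alone (limma adjusted p = 0.145 and 0.271). Calls over all genes fell in each of these fits as well. Of the 7 glucocorticoid-responsive genes listed, Tsc22d3 and Ddit4, an inhibitor of mTOR signalling, rose in AngII+BAI against Control. Ddit4 had 8.47 to 35.1 FPKM in AngII+BAI, against 4.26 to 14.4 FPKM in Control, a fold change of 1.33 (SE 0.35, limma adjusted p = 0.049). That call was lost without any one of 9 of the 10 libraries, all but AngII+BAI replicate 4. Calls over all genes fell in those fits too, except without AngII+BAI replicate 2, where they rose. Ddit4 had 8.75 to 31.4 FPKM with angiotensin II alone, where AngII+BAI against AngII was 0.12 (SE 0.35, limma adjusted p = 0.90) and AngII against Control was 1.21 (SE 0.35, limma adjusted p = 0.21). Tsc22d3 had 24.1 to 62.2 FPKM in AngII, with AngII+BAI against AngII at 0.68 (SE 0.34, limma adjusted p = 0.37) and AngII against Control at 0.96 (SE 0.34, limma adjusted p = 0.29). Per1 and Tsc22d3 stand on the glucocorticoid list and on a clock list at once.

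The genes most like Nr1d1 over the 30 deviations from the group means were not clock genes. The 6 highest were Itga10 (Pearson's r 0.78), Sgcd (0.76), Lrrfip2 (0.69), Cuedc1 (0.68), Phc1 (0.64) and Ctdsp1 (0.63), and the 6 lowest were Fam185a (−0.71), Psma1 (−0.65), and Ak6, Eif3l, Tomm70a and Idh1 (−0.61 each). Over the 12199 genes compared, the bulk of r with Nr1d1, leaving out the outermost percent on each side, lay between −0.48 and 0.46. For Arntl the highest were Reep2 (0.76), Rundc3a (0.75), and Rab3a, Ptprr, Nnat and Cend1 (0.72 each). Rab3a and Cend1 are known from neurons, and Cend1 had 2.49 to 21.5 FPKM. The lowest for Arntl were Nfe2l2 and Cabin1 (−0.71 each), Gga1 (−0.66), Rab20 and Preb (−0.65 each) and Mpeg1 (−0.63), a macrophage gene, and the bulk of r with Arntl, cut the same way, lay between −0.48 and 0.56. These values rank genes over libraries that share tissue makeup, and no test was made of them.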

How the data were processed

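RNA of mouse abdominal aorta was depleted of ribosomal RNA and sequenced with a kit that does not mark strand, per the labels' protocols. The authors deposited 1 table of FPKM per transcript for each of 30 libraries. That the values are FPKM was inferred from the values; the build mm10 and the tool limma stand in the submitters' processing notes, and the aligner and quantifier are not given in the sources used here. Low values fell within 0.1 read of whole multiples of 1 read in 98.7% to 99.7% of cases, which gave the depth. Of 33677 Ensembl transcripts, 33638 matched GENCODE M21 gene names. FPKM were summed per gene over transcripts listed in all 30 files.

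The 13223 genes that reached 1 FPKM in 5 or more libraries were fitted as log2(FPKM + 1) with limma 3.58.1 (trend and robust) in R 4.3.3, with 1 mean per group over all 30 libraries and Benjamini-Hochberg adjustment over all 13223 genes. Correlations used deviations from group means and 100000 permutations within groups (Python 3.11.15, scipy 1.17.1). In simulated data for AngII against Control over 13223 genes, 60% of 100 genes changed by 1 on the log2 scale and 92% of 100 changed by 2 were recovered. There were 4 false calls. The changed genes were drawn at random from all genes tested, whose median within-group SD was 0.39. Most clock genes had a wider spread, so these rates do not hold for them.

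The members and gene lists were chosen with earlier results of these data known. All 10 members are named; of the other clock and output genes, Per1, Cry1, Cry2, Ciart, Bhlhe41 and Hlf are always named, with at most 6 more per comparison that passed the test or had groups that did not overlap. For likeness the 6 highest and 6 lowest r are named. Alternatives covered the pseudocount, the filter, quantile and trimmed-mean scaling, the transcripts summed, array weights, fits of 2 groups alone and leaving out libraries.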

Additional observations from a re-analysis of the deposited data

Results flagged for a closer look

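Of the 60 combinations of a clock gene and a group, 6 held a library far from the other 4 by Dixon's gap criterion. Chance gives about 1 in 20 for normally distributed values. That rate does not hold for Npas2, often listed at 0, so the 6 cannot be weighed against it. Nr1d1 was lowest in AngII+ETH replicate 1, at 20.2 FPKM, and in AngII+VAL replicate 3, at 34.3 FPKM. Npas2 was highest in AngII replicate 1, at 4.47 FPKM, and in Control replicate 2, at 3.59 FPKM, with the other 4 libraries of each group at or near 0. Per2 was lowest in AngII+GAS replicate 1, at 1.60 FPKM. Per3 was lowest in AngII replicate 5, at 0.387 FPKM.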

How the results depend on the processing

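The count of clock genes called was 0 under all alternatives in 8 of the 9 comparisons. In AngII+BAI against Control it ran from 0 to 1 when 1 library was left out, and the 1 was Clock, without AngII+BAI replicate 2 or replicate 4. Calls over all genes rose in those fits as well. No pair of clock genes was called under any of the 41 alternatives tried for the pair counts. Nr1d1 kept its direction against AngII under every alternative run, with fold changes from 1.20 to 2.14 in AngII+ETH, 0.57 to 1.81 in AngII+BAI, 1.24 to 2.25 in AngII+GAS and 1.31 to 2.26 in AngII+VAL, and from −1.45 to −0.65 in AngII against Control. All of these comparisons share the AngII libraries that the choice of Nr1d1 rested on, so the kept direction is a description only. Nfil3 in AngII+VAL against AngII ran from −1.17 to −0.88. The r of Nr1d1 with Arntl ran from −0.10 to 0.28 over 42 alternatives. Leaving out AngII replicates 1, 4 and 5, or summing Nr1d1 with Thra, was chosen after seeing the data. No paired analysis was possible because the labels give the libraries no replicate numbers. FPKM give no counting model, 5 libraries per group limit precision, and Npas2 and Per3 lie near the low end of the scale.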
